A study of Glycine max with 47 samples.

Results

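The data described here are 6 of the 47 root libraries of a soybean series: 3 libraries taken at 5 days and 3 taken at 30 days from roots of the cultivar PI518671 (Williams 82) that had been infested with the soybean cyst nematode (SCN) alone. They were chosen by their labels (cultivar, treatment and time point), with no measured value. PI518671 is susceptible to SCN. Each plant had received 2000 SCN eggs of 1 nematode population, HG type 0, at planting and carried no soybean aphids (SBA). The time points are days post infestation (dpi) counted from the day on which the aphid treatments of the same experiment were infested, so the nematodes had been with the roots for longer than 5 and 30 days. Roots of 5 dpi came from Water bath I and roots of 30 dpi from Water bath II, and each library came from a different plant. Time point and water bath therefore cannot be told apart in any comparison below. Whole roots were sequenced, so the RNA of infected and uninfected root tissue was read together, and more cells of a type cannot be told apart from more RNA per cell.

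The same time comparison in 4 other groups serves as the reference: PI518671 control roots with neither pest, PI518671 roots of plants with 15 SBA, PI518671 roots with both pests (SCN:SBA), and SCN-infested roots of MN1806CN, a resistant cultivar. Each of these groups has 3 libraries at 5 dpi from Water bath I and 3 at 30 dpi from Water bath II.

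SCN (Heterodera glycines) juveniles hatch from eggs in the soil, enter the root and move to its vascular cylinder. There they turn root cells into a syncytium, a fused multinucleate feeding cell on which the nematode depends until it matures, and the female swells into an egg-filled cyst on the root surface. In a susceptible root the syncytium persists, whereas in a resistant one it fails to develop fully. SBA feeds on the phloem of the shoot and reaches the root only through changes in the plant.

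The 6 SCN libraries held 17826633, 9444117 and 18909869 estimated counts at 5 dpi and 26306585, 18327866 and 20899926 at 30 dpi, and between 36167 and 37305 genes reached 0.5 CPM (counts scaled to a common library total) in each. Replicate 2 of 5 dpi was the shallowest, with 4.72 counts for a gene at 0.5 CPM. The 10 most abundant genes took 2.99% to 5.50% of a library. Gene IDs are printed as deposited: 0 of the 55983 IDs matched the reference table used here, so roles and pathways are not given, and root, leaf or nodule markers were not checked.

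The roots of 5 and 30 dpi were about as far from each other as the 3 roots of 5 dpi were among themselves. Over the 43122 genes tested (0.5 CPM or more in at least 1 of the 47 libraries), the share of genes that differed by more than 1 on the log2(CPM + 1) scale was 8.13%, 10.1% and 10.1% in the 3 pairs of 5 dpi libraries. It was 2.02%, 2.23% and 2.33% in the 3 pairs of 30 dpi libraries. Between the times it ranged from 6.10% to 10.7% over the 9 pairs, a range that takes in all 3 pairs of 5 dpi. The spread among the roots thus lay at 5 dpi, and the roots of 30 dpi were close to each other.

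Pearson's r over the same genes gave the same order, with a mean of 0.954 within 5 dpi, 0.982 within 30 dpi and 0.955 between the times. Each 30 dpi library had another SCN library of 30 dpi as its nearest of the other 46. None of the 5 dpi libraries had one of its own group: replicate 1 was nearest to an SBA root of 30 dpi (r = 0.969), replicate 2 to an SCN root of 30 dpi (r = 0.968), and replicate 3 to an SCN:SBA root of 5 dpi (r = 0.975). These correlations are over genes of the same libraries and are given as a description.

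In the other groups the roots of the 2 times differed in more genes, and in some the roots of one time did too. The mean share of genes differing by more than 1 between 5 and 30 dpi was 32.6% in the control roots, 26.9% in the SBA roots, 17.5% in the SCN:SBA roots and 16.3% in MN1806CN SCN roots, against 9.01% in the PI518671 SCN roots. Within 5 dpi the mean share was 22.3% in control, 14.0% in SBA, 17.8% in SCN:SBA and 5.48% in MN1806CN SCN roots, and within 30 dpi it was 1.48%, 19.9%, 5.00% and 3.71% in the same order. The mean share of SCN:SBA roots was thus about as high within 5 dpi as between the times, but replicate 3 of 5 dpi carried it. Within 5 dpi its pairs differed in 24.8% and 25.2% of genes, and replicates 1 and 2 in 3.34%. Between the times, pairs with replicates 1 and 2 of 5 dpi ran from 9.98% to 17.3%. Those with replicate 3 ran from 23.4% to 26.3%.

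The control libraries of 5 dpi stood apart: their mean r was 0.789 with control libraries of 30 dpi and 0.806 with SCN libraries of 5 dpi, while control and SCN libraries of 30 dpi had a mean r of 0.957. Replicates 2 and 3 stood furthest apart, with r of 0.733 to 0.772 with control libraries of 30 dpi, compared with 0.857 to 0.861 for replicate 1. In replicates 2 and 3 the TMM factors were 0.621 and 0.703, 30857 and 30448 genes reached 0.5 CPM, and the 100 most abundant genes took 29.6% and 23.2% of the counts. In replicate 1 these values were 1.03, 35676 and 14.0%. Whether these libraries match their labels was not tested, and each comparison with the control below rests on them. In the same fit, 17333 genes (40.2%) differed between SCN and control roots at 5 dpi and 201 (0.466%) at 30 dpi.

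**Figure D1:**
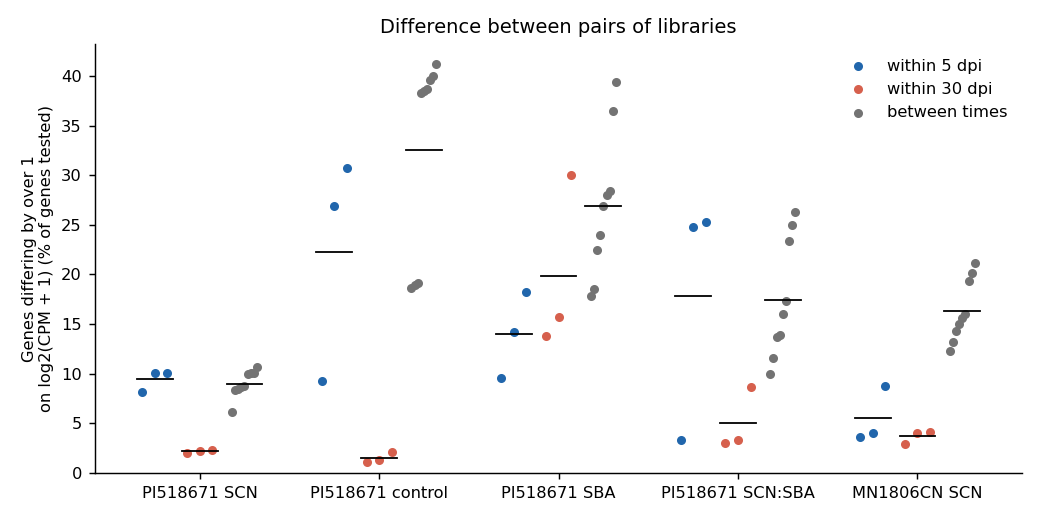
Share of the 43122 genes tested that differed by more than 1 on the log2(CPM + 1) scale (vertical axis, percent) in pairs of libraries of 5 groups. Each point is a pair, within 5 dpi (blue), within 30 dpi (red) or between the times (grey), and black lines are means. In PI518671 SCN roots the pairs within 5 dpi (8.13% to 10.1%) lie inside the range of the pairs between times (6.10% to 10.7%), and those within 30 dpi lie between 2.02% and 2.33%.

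Few genes passed the test for a change with time. In edgeR's quasi-likelihood test on all 47 libraries, 64 of 43122 genes (0.148%) differed between 30 and 5 dpi in SCN roots at a Benjamini-Hochberg adjusted p under 0.05. Of these, 28 rose (0.0649%) and 36 fell (0.0835%), and 61 changed by more than 2-fold. At an unadjusted p under 0.05 the number was 4341 (10.1%), with 2326 higher and 2015 lower at 30 dpi. In 10024 genes (23.2%) the 3 libraries of one time all lay above the 3 of the other, 4626 with 30 dpi higher (10.7%) and 5398 with 30 dpi lower (12.5%), and all 64 called genes were among them.

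The 64 calls rested on single libraries and on the libraries that share the fit. Without 5 dpi replicates 1, 2 or 3, the test called 10, 74 and 0 genes, of which 9, 34 and 0 were among the 64. Without 30 dpi replicates 1, 2 or 3, it called 37, 14 and 3, of which 32, 14 and 3 were among the 64. The split by direction turned as well, with 13 higher and 61 lower without 5 dpi replicate 2, 29 and 8 without 30 dpi replicate 1, and 11 and 3 without 30 dpi replicate 2. A fit of the 6 SCN libraries alone called 0 genes, with 7743 at an unadjusted p under 0.05, and the fit without replicate 3 of 5 dpi, which also called 0, had 3392. DESeq2 on all 47 libraries called 359 genes, 119 higher and 240 lower at 30 dpi, and 63 of the 64 were among them. The fit of the 24 PI518671 libraries called 32, 22 higher and 10 lower, with 26 of the 64 among them, and the fit without the control libraries of 5 dpi, which stand apart, called 106, including 63 of the 64. The 64 genes are described below as those of the fit on all 47 libraries, not as a settled list.

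The same fit called far more genes with time in the other groups. In control roots 17426 genes (40.4%) changed, 9022 of them higher at 30 dpi (20.9%) and 8404 lower (19.5%). In SBA roots 6579 changed (15.3%), with 4309 higher (9.99%) and 2270 lower (5.26%). In SCN:SBA roots 2466 changed (5.72%), with 1461 higher (3.39%) and 1005 lower (2.33%). In MN1806CN SCN roots 5890 changed (13.7%), with 2803 higher (6.5%) and 3087 lower (7.16%). The share of genes without overlap of the 3 and 3 libraries differed less between groups. It was 43.8% in control, 30.4% in SBA, 25.1% in SCN:SBA and 42.2% in MN1806CN SCN roots, compared with 23.2% in PI518671 SCN roots.

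The difference between SCN and control roots in their change with time was tested as an interaction and passed in 9576 genes (22.2%). The change was higher in SCN roots for 4448 genes (10.3%) and lower for 5128 (11.9%). Among the first, the median log2 change was 0.03 in SCN roots and −1.70 in control roots, and 4261 of them had fallen in the control. Among the second, it was 0.04 in SCN roots and 2.76 in control roots, and 4872 had risen in the control. Both sets were chosen by this difference, so medians that part in these directions follow from the choice. Of the 9576 genes, 25 of the higher and 14 of the lower had changed in SCN roots themselves. The control libraries of 5 dpi enter this test. Leaving out replicate 1 of them raised the number to 14430, and leaving out replicate 2 or 3 lowered it to 6865 or 6937. With scaling by library totals in place of TMM factors the number was 8721, of which 28.3% were higher in SCN roots, compared with 46.4% of the 9576. That scaling moved the median difference of all genes from −0.09 to −0.43 on the log2 scale.

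A second contrast set SCN against SBA roots, in the fit of all 47 libraries. The time change differed between SCN and SBA roots in 1771 genes (4.11%), with 110 higher (0.255%) and 1661 lower (3.85%) in SCN roots. The 1661 genes had a median log2 change of 0.27 in SCN roots and 3.15 in SBA roots, and 1635 of them had risen in SBA roots. They were chosen by this difference, which sets the direction in which the medians part. Under scaling by library totals 1525 genes passed and 23.5% of them were higher, compared with 6.2% under TMM, as the median difference of all genes moved from 0.08 to 0.38. The 110 was 20 without SCN replicate 1 of 5 dpi, 289 without SCN replicate 3 of 5 dpi and 283 without SBA replicate 1 of 30 dpi. A fit of the 12 libraries alone called 1134, and the fit without the control libraries of 5 dpi called 2079.

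The time change of SCN roots differed between PI518671 and MN1806CN in 466 genes (1.08%), 193 higher (0.448%) and 273 lower (0.633%) in PI518671. In the 193, the median log2 change was 0.59 in PI518671 and −2.85 in MN1806CN, and in the 273 it was −0.24 and 3.04. That these medians part follows from how the genes were chosen. The number of 466 also moved with the libraries used. It was lowest without MN1806CN replicate 1 of 5 dpi, at 39, highest at 415 without MN1806CN replicate 3 of 5 dpi, and between 84 and 413 without each of the other 10 libraries. A fit of the 12 SCN libraries called 3304, DESeq2 1734, and the fit without the control libraries of 5 dpi 1027.

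Small shifts in SCN roots ran the same way as the larger ones elsewhere. The genes that rose from 5 to 30 dpi in SCN:SBA roots (1461) had a median log2 change of 1.95 there and 0.52 in SCN roots, and 92.5% of them were higher at 30 dpi in SCN roots. Those that fell (1005) had medians of −1.52 and −0.77, and 3.28% were higher in SCN roots. For genes that rose or fell in SBA roots, the SCN medians were 0.35 and −0.43. For those of MN1806CN SCN roots they were 0.46 and −0.25, and for those of control roots 0.23 and −0.14. Over all 43122 genes the SCN median was 0.01 and 50.5% were higher. The groups share no library with the SCN roots, but they share the water baths.

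Across all 43122 genes, Pearson's r of the SCN time change was 0.412 with that of SCN:SBA roots, 0.303 with SBA roots, 0.190 with MN1806CN SCN roots and 0.157 with control roots. Spearman's rho was 0.451, 0.315, 0.218 and 0.295 in the same order. These are descriptions across genes, which are not replicates.

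**Figure D2:**
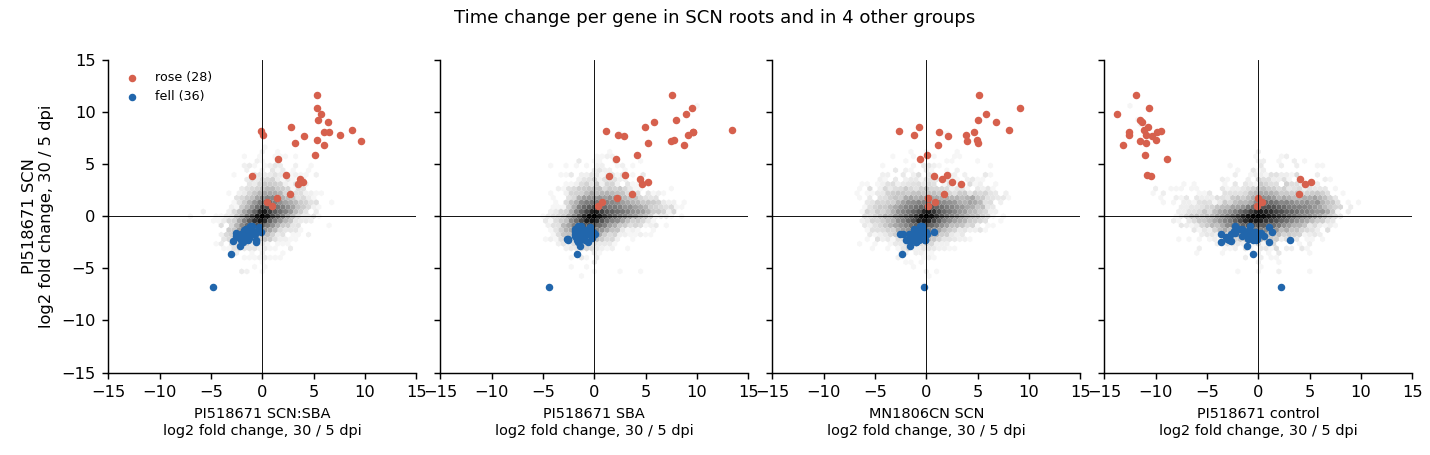
Log2 fold change of 30 against 5 dpi in PI518671 SCN roots (vertical axis) and in SCN:SBA, SBA, MN1806CN SCN and control roots (horizontal axes) for 43122 genes. Darker grey means more genes per bin on a log scale, red points are the 28 genes that rose in SCN roots and blue points the 36 that fell. Most red points lie to the right in the first 3 panels. In control roots 21 of the 28 had fallen (19.5% of all genes had), at the far left of the last panel.

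To place each SCN root on the time change of another group, the mean log2(CPM + 1) of the genes that fell there was subtracted from that of the genes that rose there. On the SCN:SBA genes, the SCN roots of 5 dpi lay at 1.64, 1.65 and 0.468 and those of 30 dpi at 2.38, 2.75 and 2.32. The SCN:SBA roots that defined the genes ran from −0.635 to −0.319 at 5 dpi and from 2.32 to 2.52 at 30 dpi. The SCN roots of 30 dpi thus overlapped the SCN:SBA roots of 30 dpi, and those of 5 dpi lay between the 5 and 30 dpi SCN:SBA roots.

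On the SBA genes the SCN roots of 5 dpi were at 1.24, 1.08 and 0.219 and those of 30 dpi at 1.48, 1.80 and 1.52, while SBA roots ran from −1.13 to −0.880 at 5 dpi and from 1.78 to 2.34 at 30 dpi. On the MN1806CN SCN genes the PI518671 SCN roots were at 0.249, 0.352 and −0.0469 at 5 dpi and at 0.825, 0.786 and 0.702 at 30 dpi. On the control genes they were at −0.165, −0.286 and −0.253 and then at 0.116, 0.122 and 0.120. The 2 times did not overlap on any of the 4 gene groups.

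The step from 5 to 30 dpi was smaller in SCN roots than in the roots that defined each gene group. The difference of means was 1.23 against 2.92 on the SCN:SBA genes, 0.756 against 2.97 on the SBA genes, 0.587 against 3.03 on the MN1806CN SCN genes and 0.354 against 2.97 on the control genes. The genes were chosen for their change in the defining roots, which enlarges the step there, so the sizes are given without a test. Replicate 3 of 5 dpi lay lowest of the 6 on the first 3 gene groups. Without it, the SCN steps were 0.836, 0.444, 0.471 and 0.344.

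**Figure D3:**
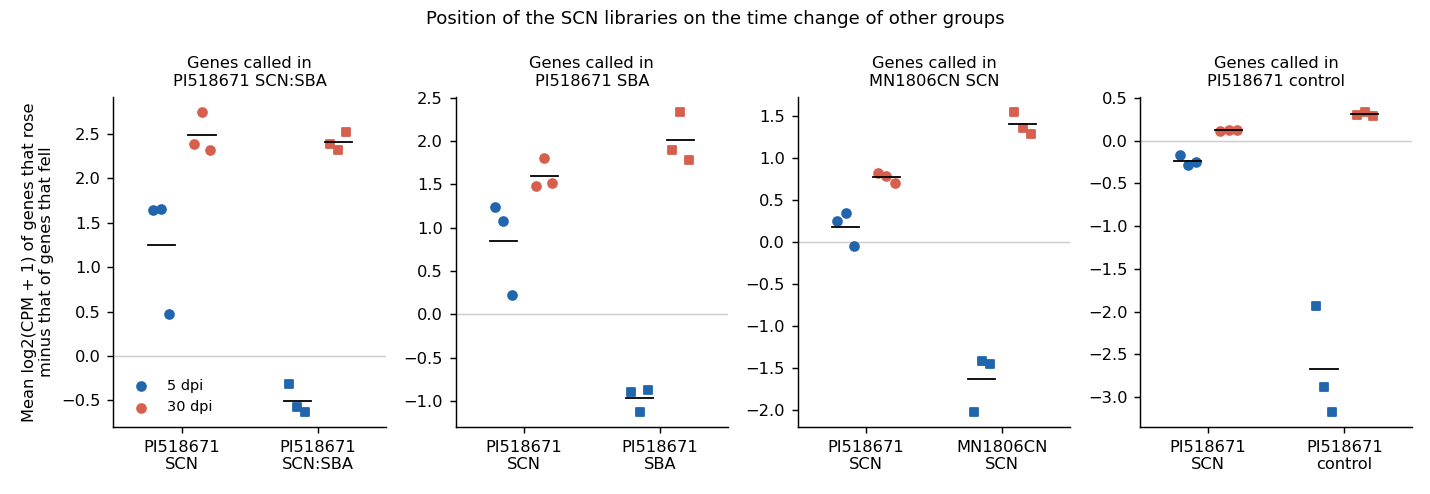
Mean log2(CPM + 1) of genes that rose minus that of genes that fell from 5 to 30 dpi (vertical axis, scale differs between panels), for genes called in SCN:SBA, SBA, MN1806CN SCN and control roots. Circles are PI518671 SCN libraries, squares the libraries that defined the genes, blue 5 dpi and red 30 dpi, and black lines are means. In each panel the 3 SCN libraries of 30 dpi lie above the 3 of 5 dpi, with a smaller step than between the squares.

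The 28 genes that rose were mostly near 0 at 5 dpi. Their log2 fold changes ran from 0.93 to 11.58 with a median of 7.28, and 19 exceeded 5. Median CPM was 0.0903 at 5 dpi and 13.5 at 30 dpi. In 19 genes all 3 libraries of 5 dpi were under 0.5 CPM, and in 3 they all had 0 counts. Fitted changes of genes at 0 counts depend on the constant that edgeR adds and are no measure of size.

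At 30 dpi these genes differed widely between the 3 roots. The highest of the 3 libraries exceeded the lowest by a median of 9.61-fold, and by more than 5-fold in 21 genes. Replicate 1 was lowest in 24 of the 28, and replicate 3 was highest in 21 and replicate 2 in 7. Summed over the 28 genes, CPM was 41.3, 35.3 and 37.8 at 5 dpi and 149.6, 587.0 and 721.8 at 30 dpi. All 3 sums of 30 dpi lay above those of 5 dpi, with replicate 1 of 30 dpi well below the other 2.

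The risers fell into groups by their change in control roots. Of the 28, 21 had fallen from 5 to 30 dpi in control roots, where 19.5% of all genes had. A further 4 had risen there, compared with 20.9% of all genes, and 3 were not called. The 21 were abundant in the control roots of 5 dpi, with a median of 799.7 CPM, and had a median of 0.316 CPM in control roots of 30 dpi. In SCN roots their median went from 0.0727 to 14.2 CPM, in SBA roots from 0.0404 to 2.54, in SCN:SBA roots from 0.152 to 2.81 and in MN1806CN SCN roots from 0.170 to 0.972. The opposite changes of these 21 in SCN and control roots were the basis of the split and are no further result. Replicate 1 was the lowest SCN root of 30 dpi in each of the 21, by 5.04-fold to 169-fold below the highest. The other 7 risers were steadier, with the highest library of 30 dpi 1.48-fold to 2.64-fold above the lowest in the 4 and 1.05-fold to 1.13-fold in the 3. Their log2 changes in SCN roots were 2.12 to 3.56 in the 4 and 0.93 to 1.70 in the 3.

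The rise was also called in groups that share no library with the SCN roots. Of the 28 risers, 22 had risen in SBA roots, where 9.99% of all genes had, 19 in SCN:SBA roots (3.39% of all genes) and 10 in MN1806CN SCN roots (6.5% of all genes). None was called lower in these 3 groups, and 9 had risen in all of them. Median log2 changes of the 28 were 5.08 in SBA roots, 4.01 in SCN:SBA roots and 2.06 in MN1806CN SCN roots. None of the 28 was called as differing between SCN and SBA roots in its time change, as 4.11% of all genes were. For 5 the change was higher in PI518671 than in MN1806CN (0.448% of all genes). The SCN change that chose the 28 enters both differences, so these counts are no further result. The SE of the difference from SBA roots was 3.92 for Glyma.18g032500 and 4.03 for Glyma.18g032600, so no call does not mean equal changes.

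Among the 7 combinations of cultivar and treatment that did not choose the genes, the summed CPM of the 28 was higher in every library of 30 dpi than in every library of 5 dpi in 5. The other 2 were the controls. In PI518671 control roots the sums were 14419.6, 48710.6 and 40982.6 CPM at 5 dpi, compared with 72.5 to 86.0 at 30 dpi. The highest sum outside those 3 libraries was 12351.5 CPM, in 1 MN1806CN SCN:SBA root of 30 dpi. The most abundant genes carry such sums. In MN1806CN SCN roots of 30 dpi the highest mean of a riser was 69.5 CPM, among the 4 that had also risen in control roots. The 21 that had fallen in control roots had a median of 0.972 CPM.

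**Figure D4:**
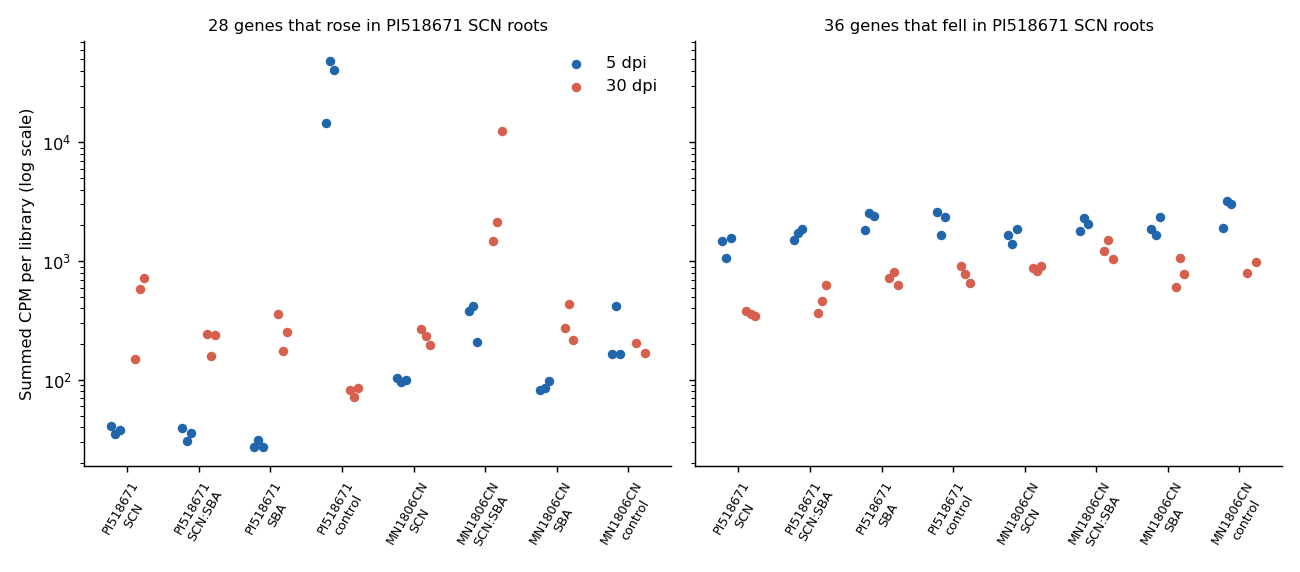
CPM summed over the 28 genes that rose (left) and the 36 that fell (right) in PI518671 SCN roots, per library on a log axis, for all 8 combinations of cultivar and treatment at 5 dpi (blue) and 30 dpi (red). The risers reach 14419.6 to 48710.6 CPM in the 3 PI518671 control libraries of 5 dpi and 149.6 to 721.8 in SCN roots of 30 dpi. The fallers are lower at 30 dpi without overlap in each combination, the SCN roots that chose them included.

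Some of the risers had neighbouring IDs. IDs of this annotation are numbered along each chromosome, and 9 of the 28 risers had another riser within 10 ID steps. They formed a run of 4 on chromosome 9, spanning 8 steps, and a run of 5 on chromosome 18, spanning 9 steps. None of the 36 fallers had another faller that near. The share expected for sets of genes drawn from all those tested was not computed, so these counts are a description. Neighbours can be similar copies between which the counting may split reads, and whether these share reads was not tested.

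Glyma.18g032500 and Glyma.18g032600, which are adjacent IDs on chromosome 18 and part of that run, had the 2 largest fitted log2 changes among called genes with a mean of at least 10 CPM at 30 dpi, an order that depends on the added constant. Glyma.18g032500 had 0 counts in all 3 SCN roots of 5 dpi and 4.94, 8.13 and 45.6 CPM at 30 dpi. Set against a floor of 3 counts over the 3 libraries of 5 dpi (0.0650 CPM), the mean of 19.5 CPM was at least 301-fold higher. That floor covers counting error only, and replicate 3 made up most of the mean. The edgeR adjusted p was 0.0172 and ranged from 2.03e-06 to 0.217 over 22 alternatives. The same gene was at 1493, 5660 and 4634 CPM in control roots of 5 dpi and at 1.17 to 1.88 CPM in those of 30 dpi. The 3 SCN roots of 30 dpi lay above the control roots of that time and far below those of 5 dpi. The difference from control roots at 30 dpi did not pass the test (log2 3.65 ± 1.15 SE, edgeR adjusted p = 0.146).

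Glyma.18g032600 was at 0, 0 and 0.0529 CPM at 5 dpi and at 2.17, 8.40 and 36.9 CPM at 30 dpi. The pooled counts were 1 at 5 dpi and 983 at 30 dpi, a ratio of 693 per count of depth with a 95% exact interval of 124 to 27388 that covers counting error only. The log2 change was 9.19 ± 1.79 (SE) with an edgeR adjusted p of 0.0194, which ranged from 7.54e-05 to 0.224 over 22 alternatives. In control roots it was at 1134, 3900 and 2172 CPM at 5 dpi and at 0.866 to 1.59 CPM at 30 dpi. Both genes followed the same order of replicates at 30 dpi, with replicate 1 lowest and replicate 3 highest. Both had also risen in SBA, SCN:SBA and MN1806CN SCN roots, with edgeR adjusted p of 0.000509, 0.0191 and 0.0237 for Glyma.18g032500 and of 0.000548, 0.0200 and 0.0338 for Glyma.18g032600.

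The 36 genes that fell changed less and more evenly. Their log2 fold changes ran from −6.77 to −0.89 with a median of −1.86, and median CPM went from 11.7 to 3.40. The highest of the 3 libraries of 5 dpi exceeded the lowest by a median of 1.80-fold. Replicate 3 was the highest of the 5 dpi roots in 25 of the 36 and replicate 2 the lowest in 25. Summed over the 36 genes, CPM was 1478, 1053.9 and 1554.9 at 5 dpi and 378.1, 359.0 and 347.5 at 30 dpi.

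The fall was called in most other groups too. Of the 36 fallers, 28 had fallen in SCN:SBA roots, where 2.33% of all genes had, 25 in SBA roots (5.26% of all genes), 17 in control roots (19.5%) and 16 in MN1806CN SCN roots (7.16%). Only in control roots were any called higher at 30 dpi, 3 of the 36, and 10 fell in SBA, SCN:SBA and MN1806CN SCN roots alike. Median log2 changes were −1.54 in SCN:SBA, −1.52 in SBA, −1.0 in MN1806CN SCN and −0.88 in control roots. The time change of 13 fallers was lower than in control roots (11.9% of all genes) and that of 2 higher (10.3%). It was lower than in SBA roots for 1 faller (3.85% of all genes) and lower than in MN1806CN SCN roots for 3 (0.633%). The SCN change that chose the fallers enters each difference, so a lean to lower follows from the choice. Their summed CPM was lower in every 30 dpi library than in every 5 dpi library in all 7 combinations of cultivar and treatment that did not choose them.

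A part of the fallers did not pass the test in control roots. In these 16 genes the median CPM was 7.57 and 1.88 in SCN roots at 5 and 30 dpi, compared with 4.79 and 4.43 in control roots, 8.74 and 3.89 in SBA roots, and 10.4 and 3.42 in SCN:SBA roots. These genes were picked for a call in SCN roots and none in control roots, so the near-level control medians follow from that choice.

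Glyma.03g026600 and Glyma.02g005800 were the largest falls by the same rule. Glyma.03g026600 was at 10.6, 13.9 and 15.2 CPM at 5 dpi and at 2.28, 2.51 and 2.06 CPM at 30 dpi, a log2 change of −2.48 ± 0.42 (SE) with an edgeR adjusted p of 0.00977 (1.58e-05 to 0.186 over 22 alternatives). It had also fallen in control roots, from 50.6–84.4 to 6.77–7.45 CPM (log2 change −3.60), in SBA roots (−1.62) and in SCN:SBA roots (−1.84). In MN1806CN SCN roots its log2 change was −1.01 with an adjusted p of 0.0793. Its level in SCN roots was below that of control roots at 5 and at 30 dpi, with no overlap. The difference passed the test at 5 dpi (log2 −2.81 ± 0.41 SE, edgeR adjusted p = 2.14e-06). At 30 dpi it did not pass (log2 −1.68 ± 0.41 SE, edgeR adjusted p = 0.0525).

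Glyma.02g005800, the most abundant of the 36 at 5 dpi, was at 226.7, 325.0 and 385.7 CPM at 5 dpi and at 63.5, 54.9 and 49.8 CPM at 30 dpi. The log2 change was −2.42 ± 0.51 (SE) with an edgeR adjusted p of 0.0357 (0.000356 to 0.261 over 22 alternatives). It had fallen in all 4 other groups, by 2.66 on the log2 scale in control roots, by 1.48 in SBA roots, by 2.83 in SCN:SBA roots and by 1.56 in MN1806CN SCN roots. Its time change did not pass the test of a difference from control roots (difference 0.24 ± 0.68 SE, edgeR adjusted p = 0.855), SBA roots or MN1806CN SCN roots. At 30 dpi the 3 SCN roots lay below the 3 control roots, which ran from 147.9 to 283.2 CPM, but the difference did not pass the test (log2 −1.99 ± 0.50 SE, edgeR adjusted p = 0.0550). The SCN roots of 5 dpi also lay below the control roots of that time, which stand apart and ran from 818.5 to 1200 CPM. That difference passed (log2 −2.23 ± 0.50 SE, edgeR adjusted p = 0.000581).

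**Figure D5:**
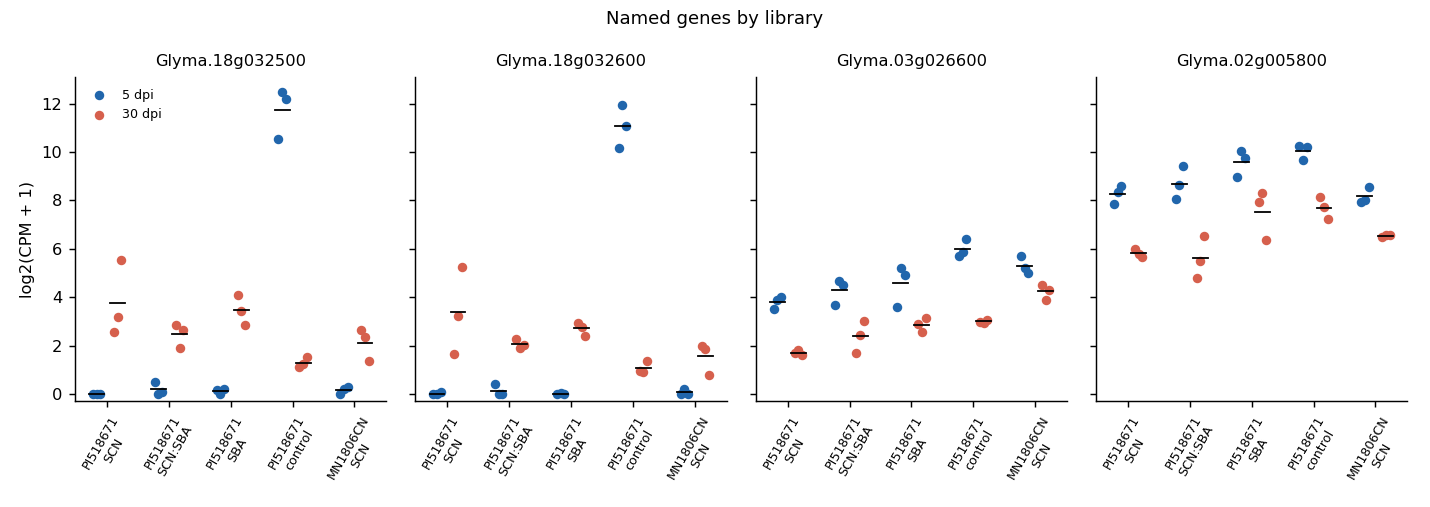
Log2(CPM + 1) of the 4 named genes (vertical axis) in each library of 5 groups at 5 dpi (blue) and 30 dpi (red), with black lines at group means. Glyma.18g032500 and Glyma.18g032600 are near 0 at 5 dpi and higher at 30 dpi in all but the control roots, where 5 dpi is far higher. Glyma.03g026600 and Glyma.02g005800 are lower at 30 dpi in each group, without overlap of the libraries.

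The calls were spread over levels of expression as follows. Of 8714 genes with a mean under 1 CPM over the 6 SCN libraries, 0 rose and 2 fell, with 366 higher and 316 lower at an unadjusted p under 0.05. Of 15965 genes at 1 to 10 CPM, 18 rose and 19 fell, and of 16781 genes at 10 to 100 CPM, 10 rose and 12 fell. Of 1662 genes at 100 CPM or more, which held 42.4% of the counts, 0 rose and 3 fell. The median SE of the log2 change was 0.88 in the lowest of these classes and 0.31 in the class of 10 to 100 CPM.

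Genes without counts at one time and expressed at the other were rare. With 0 counts in all 3 libraries of 5 dpi and at least 1 CPM in all 3 of 30 dpi there were 8 genes, 3 of them called. There were 0 genes of the opposite kind. Replicate 2 of 5 dpi was the shallowest of the PI518671 SCN libraries, with 9444117 counts. Whether depth bears on this split was not tested.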

How the data were processed

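Whole-root RNA was sequenced as single-end reads. After trimming (Btrim64), the authors ran Salmon (0.9.1, per the submitters' processing notes) against primary transcripts of Wm82.a2.v1 and deposited estimated counts per gene, not normalized. Here they were rounded to whole numbers. Libraries were grouped by GEO labels.

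Genes with 0.5 CPM in at least 1 library were kept. The test was edgeR 4.0.16 (R 4.3.3): TMM, 1 mean per group over all 47 libraries, quasi-likelihood F test, two-sided, Benjamini-Hochberg adjusted p under 0.05. SEs are the log2 change over the square root of F. CPM uses library totals. The fits were tested on simulated counts. By the paper's methods the replicates were separate plants. The p-values measure the spread between plants within the 16 groups, each in a single water bath, and not the spread between baths.

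Named genes were the 2 largest rises and 2 largest falls among called genes without overlap and with a mean of at least 10 CPM in the higher group. The 36 gene lists and the marker lists had 0 members. Comparisons and lists were chosen with earlier results of these data known. Alternatives were RLE factors, library totals, other filters, DESeq2 1.42.0, a replicate block, other sets of libraries, and each library left out in turn.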

Additional observations from a re-analysis of the deposited data

Results flagged for a closer look

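Tests of the difference between groups picked out the following values. The time change differed between SCN and control roots of PI518671 in 9576 genes, between SCN and SBA roots in 1771 genes, and between SCN roots of PI518671 and MN1806CN in 466 genes. Control libraries of 5 dpi, which stand apart from the other PI518671 libraries, enter the first of these tests, and whether they match their labels was not tested. Without them in the fit, the other numbers were 2079 and 1027 genes.

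For Glyma.18g032500 the fitted log2 time change was higher by 23.49 in SCN than in control roots, and for Glyma.18g032600 by 20.75. Both are fitted values of genes with 0 or 1 counts in the SCN roots of 5 dpi and depend on the constant that edgeR adds. Dixon's test for a single outlying library needs groups of at least 4 and was not run.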

How the results depend on the processing

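The number of genes called with time in SCN roots (64) was 66 with RLE factors, 51 without a filter, 64 with filterByExpr, 47 with the replicate block and 86 with library totals. It moved to 32 with the PI518671 libraries only, to 106 without the control libraries of 5 dpi, to 359 with DESeq2 and to 0 with the 6 libraries alone, also with the replicate block (6563 genes at an unadjusted p under 0.05) or without any of the 6 in turn (4824 to 9237 at an unadjusted p under 0.05). Leaving out a library in turn gave 0 to 74 in the fit of all libraries. The difference from control roots (9576) ranged from 6865 to 14430 without 1 of 12 libraries, and that from SBA roots (1771) from 1190 to 2284, with 1134 in the fit of the 12 libraries alone and 2563 with DESeq2. The difference between cultivars (466) ranged from 39 to 415 without 1 library, and was 3304 with the 12 libraries alone, 1734 with DESeq2, 1027 without the control libraries of 5 dpi and 241 with library totals. The fit without the control libraries, library totals, and the block or a left-out library in the fit of 6 were chosen after seeing the data. No named gene changed direction, and each lost its call under 10 to 15 of 22 alternatives. The replicate numbers are of plants in different water baths, and same-numbered deviations correlated at −0.242, −0.0564 and 0.206. The main test therefore did not take the numbers as pairs. The replicate block fits a shared effect per replicate number across both baths. The paper describes randomized blocks, but the sample labels do not name the block of a plant, so that alternative may not follow them. Alternatives for the gene lists were not run, as the lists had no members. The causes of these shifts were not tested.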
